A study of Mus musculus with 6 samples.

Results

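Accessible-chromatin windows lying at the ends of genes were compared between mouse small intestinal organoids treated with RANKL and control organoids. A window belonged to the set when its centre lay 1 kb or less from the start or the end of any protein-coding gene, by position alone and without regard to its counts. This rule took 10273 of the 55056 windows in the deposited table, or 18.7%, and left 44783 windows farther away. The 10273 windows lay beside 11110 genes, since 1504 of them had 2 or more gene ends within 1 kb. By the strand of the nearest gene, 7562 sat nearest a 5′ end, where transcription starts, and 732 nearest a 3′ end, and for 1979 no strand was in the sequence table used. The median distance from window centre to gene end was 81 bp, and 73.7% of the windows lay within 250 bp. At the edge of the rule, 212 windows lay 900 to 1000 bp from a gene end and 209 lay 1001 to 1100 bp away.

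Organoids are epithelial cultures that grow from intestinal crypt cells in a gel. All 6 libraries came from line26, a wild-type Lgr5GFPDTR/+ line from a female mouse, so they carry the same reporter allele and represent 1 line. The RANKL group (n = 3) received 3 µM CHIR99021 and 1.5 mM valproic acid for 3 days, then ENR medium for 1 day, then RANKL at 100 ng/ml for 6 days. The control group (n = 3) was kept in ENR medium and taken at day 6. Names of the control libraries start with the unexplained letters CVENR, and the labels do not say whether controls had the CHIR99021 and valproic acid step, so effects of RANKL and of that step cannot be told apart here. Each library was made from 50000 cells, and replicates 1 to 3 of each group are separate differentiation experiments.

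In ATAC-seq the Tn5 transposase cuts DNA that is not wrapped tightly in nucleosomes, so the number of reads in a window measures how open that stretch is. Promoters of genes that a cell uses are usually kept open, and many of them lie in CpG islands that are open in nearly every cell type, whereas promoters of cell-type genes are often poor in CpG and open only where the gene is active. RANKL is a cytokine of the TNF family that binds its receptor RANK on intestinal epithelial cells, activates NF-kB through both of its branches, and drives the differentiation of microfold (M) cells. In bulk libraries a lower count can come from fewer cells of a type or from less open chromatin per cell, and these cannot be told apart. The nearest gene is used as a name for a window and need not be the gene that the window regulates.

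The sequences of 11 promoters show the range of DNA on which the results rest. Each is the 250 bases before the annotated transcription start, 5′ to 3′ on the strand of the gene, from RefSeq on build GRCm38.p6, and each belongs to a window centred within 250 bp of that start. At H2-K1 and Nfkbid this RefSeq start lies inside the gene body used for distances, so that their windows are inside the gene by the one annotation and upstream of the start by the other. The first 7 were chosen for letters that match binding motifs of factors tied to RANKL, inflammation or interferon signalling, given in capitals. These are GGANTTNCC for NF-kB (kB) in H2-M2 (chr17:37483555-37483804, minus strand), Nfkbid (chr7:30422156-30422405, plus strand), Birc5 (chr11:117848987-117849236, plus strand) and Olfm4 (chr14:80000052-80000301, plus strand). They are GAAGTGAAA for Ets factors with IRF in H2-K1 (chr17:34000348-34000597, minus strand), TGANTCA for AP-1 in Sprr1a (chr3:92485882-92486131, minus strand) and GAAANNGAA, as in interferon response elements, in Trim30a (chr7:104465194-104465443, minus strand), each searched on both strands. Only exact matches to the letters chosen for each promoter are marked, so unmarked stretches can hold variants of these motifs or other motifs. Accessibility was higher with RANKL at H2-M2, Nfkbid, Birc5, H2-K1 and Sprr1a and lower at Olfm4 and Trim30a.
H2-M2: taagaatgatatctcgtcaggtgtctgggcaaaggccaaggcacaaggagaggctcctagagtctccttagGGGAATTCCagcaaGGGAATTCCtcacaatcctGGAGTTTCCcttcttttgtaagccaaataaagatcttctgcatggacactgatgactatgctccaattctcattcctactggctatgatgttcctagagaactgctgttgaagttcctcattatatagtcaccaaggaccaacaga
Nfkbid: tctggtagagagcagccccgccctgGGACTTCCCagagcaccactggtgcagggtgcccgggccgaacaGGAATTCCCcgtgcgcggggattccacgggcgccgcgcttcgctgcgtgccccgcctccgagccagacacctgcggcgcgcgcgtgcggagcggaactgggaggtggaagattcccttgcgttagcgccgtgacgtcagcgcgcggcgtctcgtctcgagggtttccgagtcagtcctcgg
Birc5: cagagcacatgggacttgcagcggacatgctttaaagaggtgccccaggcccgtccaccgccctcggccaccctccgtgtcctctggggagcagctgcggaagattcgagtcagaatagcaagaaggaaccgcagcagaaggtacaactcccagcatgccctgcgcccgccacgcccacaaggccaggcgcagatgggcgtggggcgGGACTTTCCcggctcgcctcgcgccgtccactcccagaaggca
Olfm4: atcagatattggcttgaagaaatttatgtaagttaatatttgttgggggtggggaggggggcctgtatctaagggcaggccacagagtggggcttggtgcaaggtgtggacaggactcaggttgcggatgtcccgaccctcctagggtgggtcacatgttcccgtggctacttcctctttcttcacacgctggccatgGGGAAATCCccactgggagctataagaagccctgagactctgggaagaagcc
H2-K1: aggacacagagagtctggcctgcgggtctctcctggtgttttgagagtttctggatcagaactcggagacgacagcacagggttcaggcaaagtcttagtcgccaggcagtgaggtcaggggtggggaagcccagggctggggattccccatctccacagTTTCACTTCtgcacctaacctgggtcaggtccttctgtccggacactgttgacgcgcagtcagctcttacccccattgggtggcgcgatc
Sprr1a: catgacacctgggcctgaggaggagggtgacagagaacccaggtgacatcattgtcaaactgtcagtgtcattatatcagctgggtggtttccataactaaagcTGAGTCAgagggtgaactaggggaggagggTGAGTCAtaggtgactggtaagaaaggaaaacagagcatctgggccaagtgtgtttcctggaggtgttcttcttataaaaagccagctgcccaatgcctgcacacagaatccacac
Trim30a: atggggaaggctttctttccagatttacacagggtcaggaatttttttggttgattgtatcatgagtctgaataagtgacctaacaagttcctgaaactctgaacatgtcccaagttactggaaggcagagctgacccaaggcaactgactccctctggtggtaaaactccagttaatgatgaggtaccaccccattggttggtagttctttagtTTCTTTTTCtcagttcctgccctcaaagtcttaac

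The next 4 promoters show the contrast in CpG content, with each CG dinucleotide in capitals. Zc3h18 (chr8:122376359-122376608, plus strand) holds 27 of them and Snap23 (chr2:120567421-120567670, plus strand) holds 17, and both windows were higher with RANKL. Apoa4 (chr9:46240594-46240843, plus strand) holds 1 and was higher, and Klk1 (chr7:44225110-44225359, plus strand) holds none and was lower.
Zc3h18: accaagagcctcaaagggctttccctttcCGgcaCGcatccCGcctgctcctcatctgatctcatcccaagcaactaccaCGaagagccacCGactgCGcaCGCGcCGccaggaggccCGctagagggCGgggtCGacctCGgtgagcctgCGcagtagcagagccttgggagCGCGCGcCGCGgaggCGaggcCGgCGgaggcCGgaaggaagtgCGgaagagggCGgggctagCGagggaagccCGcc
Snap23: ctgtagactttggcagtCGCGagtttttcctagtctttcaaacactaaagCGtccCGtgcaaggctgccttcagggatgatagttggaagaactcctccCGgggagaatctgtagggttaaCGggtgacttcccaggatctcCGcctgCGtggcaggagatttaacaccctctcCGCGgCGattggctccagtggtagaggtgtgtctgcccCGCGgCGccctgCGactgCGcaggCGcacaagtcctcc
Apoa4: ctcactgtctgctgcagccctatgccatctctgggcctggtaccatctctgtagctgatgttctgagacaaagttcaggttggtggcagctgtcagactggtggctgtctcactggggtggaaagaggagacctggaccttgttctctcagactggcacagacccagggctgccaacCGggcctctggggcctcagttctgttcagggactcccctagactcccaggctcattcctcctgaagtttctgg
Klk1: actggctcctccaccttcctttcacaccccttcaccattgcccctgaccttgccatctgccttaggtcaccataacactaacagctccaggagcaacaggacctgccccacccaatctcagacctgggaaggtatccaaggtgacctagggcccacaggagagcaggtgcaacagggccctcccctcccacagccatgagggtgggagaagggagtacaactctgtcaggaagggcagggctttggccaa

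Library totals ranged from 322173 to 976881 counts. A count of 0 allows up to 3 counts, which equal 3.95 to 12.2 CPM (counts scaled by effective library size). These limits cover counting error only. Epithelial genes had open windows in both groups: the Cdh1 window (E-cadherin) held 53.0 ± 2.64 CPM in controls and 53.1 ± 11.7 with RANKL (SD, n = 3 each), and the Cdx2 window, of an intestinal master regulator, 96.8 ± 9.10 and 93.2 ± 18 CPM. Among markers of cells that an epithelial culture should lack, 6 of 29 haematopoietic, 4 of 22 mesenchymal, 1 of 17 endothelial and 6 of 20 neural genes had a window within 1 kb. Their summed levels were 128 to 142 against 107 to 167 CPM, 53.0 to 79.2 against 31.8 to 40.7 CPM, 35.8 to 46.0 against 20.3 to 52.0 CPM and 165 to 196 against 165 to 203 CPM in control and RANKL libraries. The summed mesenchymal level did not overlap between groups, and its part in the results was not tested. Windows of Ptprc, Pecam1 and other defining markers of these cells were not among the members.

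Near-gene windows were stronger than the others in every library. Their median level was 38.7, 40.8 and 39.6 CPM in control replicates 1 to 3 and 44.8, 43.3 and 45.9 CPM in RANKL replicates 1 to 3, so the RANKL libraries lay above the controls (exact two-sided permutation test, p = 0.1, the smallest that 3 against 3 libraries can give). The other windows had medians of 12.9, 11.8 and 11.3 CPM in controls and 12.2, 11.5 and 14.8 CPM with RANKL (p = 0.6, exact permutation test). Of all counts in a library, 36.2%, 38.1% and 39.2% fell in near-gene windows in controls and 41.2%, 39.3% and 39.0% with RANKL. RANKL replicate 3 lay under control replicate 3, and the means of 37.8% ± 1.52 and 39.9% ± 1.19 (SD, n = 3) differed by 2.03 percentage points (p = 0.2, exact permutation test).

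Windows were tested one by one with edgeR's quasi-likelihood test, fitted on the whole table and adjusted by Benjamini-Hochberg over all 21618 windows that passed a filter on low counts, and called at an adjusted p of 0.05 or less. Of the 10273 near-gene windows, 8178 (79.6%) were tested. The other 2095 had a median level of 11.5 CPM and were too shallow. A window could pass the filter through the libraries of 1 group alone, in which it was high. With RANKL, 754 near-gene windows (9.22% of those tested) were higher and 239 (2.92%) were lower. Over all tested windows the shares called were 10.0% higher and 10.0% lower, 20.1% in either direction. Windows away from gene ends divided as 1412 higher (10.5%) and 1930 lower (14.4%) of 13440, so the near-gene share of rises was close to the background and the share of falls was below it. Leaving out 1 library gave 410 higher windows without control replicate 1, 428 without control replicate 2, 501 without RANKL replicate 2 and 444 without RANKL replicate 3, and 158 lower ones without RANKL replicate 2. All 3 RANKL libraries lay above all 3 controls at 18.4% of near-gene windows and below them at 7.74%, against 16.5% and 16.9% of all tested windows.

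The median fold of the called near-gene windows was 1.79 among rises and 1.90 among falls, against 3.48 and 2.45 among the other windows. Only 28 of the 754 rises and 7 of the 239 falls exceeded 4-fold, while 230 and 101 exceeded 2-fold. When all tested windows were divided into 4 equal groups by mean CPM, these folds in the weakest group were 3.23 and 3.16 near genes against 6.65 and 3.23 elsewhere, and in the strongest group 1.61 and 1.60 against 1.68 and 1.77. In that strongest group, 391 of 3508 near-gene windows were higher (11.1%) and 106 lower (3.02%), against 158 (8.33%) and 383 (20.2%) of 1897 other windows. In the weakest group, 62 of 875 near-gene windows were higher (7.09%) and 34 lower (3.89%), against 655 (14.5%) and 488 (10.8%) of 4530 others. These shares are given as a description, without a test.

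**Figure D1:**
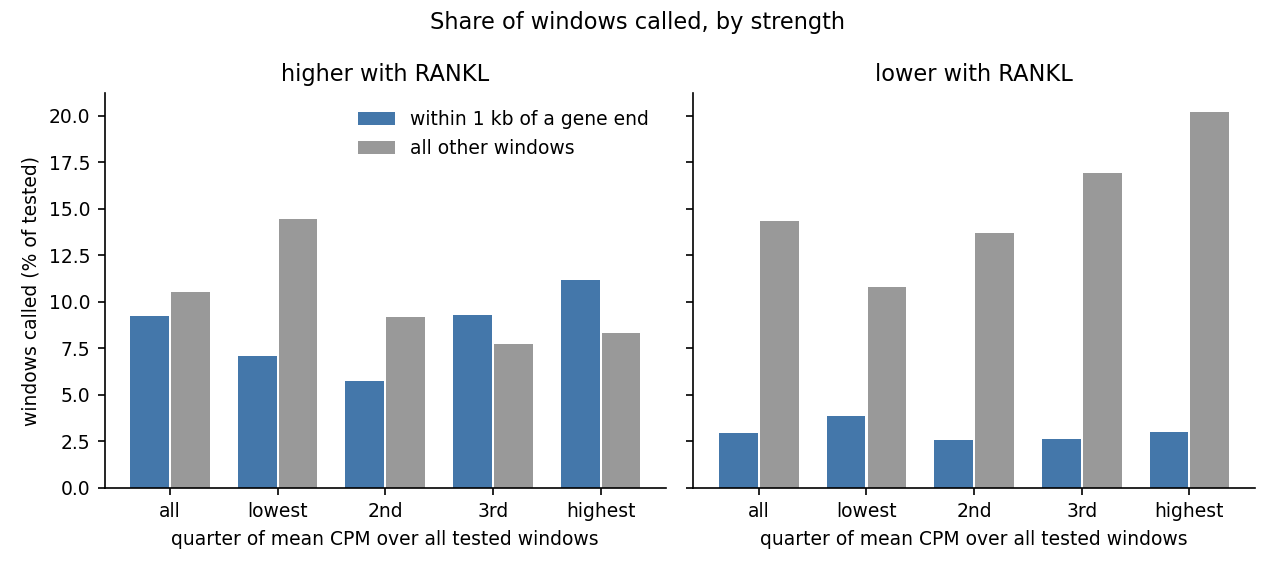
Percentage of tested windows called higher (left) or lower (right) with RANKL, for windows within 1 kb of a gene end and for all others, over all tested windows and in 4 equal groups by mean CPM. Lower windows made up 2.92% of the near-gene windows and 14.4% of the others, and the gap was widest among the strongest windows.

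The balance of rises and falls differed between settings. With DESeq2 size factors 776 near-gene windows were higher and 227 lower, and with loess offsets 698 and 271. The median log2 fold change of tested near-gene windows was 0.15, against -0.14 for the other windows, and when library sizes and factors came from the near-gene windows alone that median became 0.01, a shift of 0.14 that such scaling makes by construction. In that fit 220 windows were higher (2.69% of 8185) and 297 lower (3.63%). In counts of 2 kb around the same centres, recovered from the second deposited table, 267 near-gene windows were higher and 1402 lower, where 8.37% of all 49935 tested windows were higher and 10.2% lower. With an abundance-dependent (loess) correction of the 2-kb counts the numbers were 867 and 491. Rises therefore made up 75.9% of the calls as tested above, 42.6% with near-gene scaling, 16% in 2-kb counts and 63.8% in 2-kb counts with loess. Of the 239 falls, 235 were also lower with near-gene scaling and 220 in 2-kb counts. Of the 754 rises, 220 were also higher with near-gene scaling and 141 in 2-kb counts, and no window of either group was called in the opposite direction in those fits. The central 200 bp held 38.9% ± 0.377 of the 2-kb reads of near-gene windows in controls and 38.2% ± 1.22 with RANKL (p = 0.4, exact permutation test), but 41.3% ± 0.710 and 33.9% ± 1.46 at the other windows (p = 0.1, the smallest possible).

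**Figure D2:**
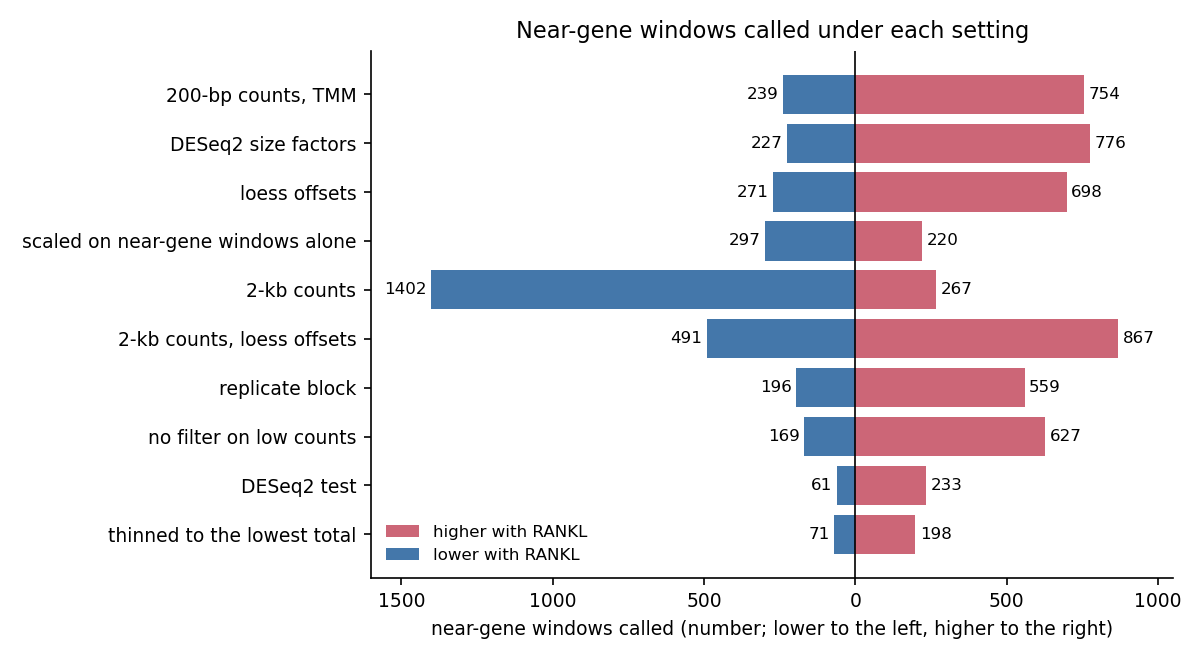
Number of near-gene windows called higher (right) and lower (left) with RANKL under each scaling, window width, filter and test. Rises outnumbered falls in 8 of the 10 settings shown, and falls outnumbered rises when scaling used near-gene windows alone and in uncorrected 2-kb counts.

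Windows nearest a 5′ end were higher at 615 and lower at 166 of 6393 (9.62% and 2.60%), with a median log2 fold change of 0.16. Windows nearest a 3′ end were higher at 22 and lower at 19 of 251 (8.76% and 7.57%), with a median of -0.03, and their 22 rises had a median fold of 5.01 against 1.76 at 5′ ends. The 3′ windows were also weaker, with a median level of 31.5 CPM against 53.7 CPM at 5′ ends. Folds of called windows were larger among weak windows, as given above, and the part of strength in this difference was not tested. Uqcrh, Rela, Guca2b, Junb and Cx3cl1 are among these 3′ rises. With growing distance from the gene end the share of falls went from 2.18% within 100 bp (109 of 4997) to 3.09% at 101 to 250 bp, 4.92% at 251 to 500 bp and 5.09% at 501 to 1000 bp (38 of 747). Windows just inside the rule, at 900 to 1000 bp, were lower at 7 of 109 (6.42%) and those just outside, at 1001 to 1100 bp, at 9 of 114 (7.89%). Where 2 or more genes had an end within 1 kb, 149 of 1348 windows were higher (11.1%) and only 10 lower (0.742%), against 605 (8.86%) and 229 (3.35%) of 6830 windows with 1 gene.

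Calls at gene ends were set beside calls farther out at the same gene. Distal windows lay more than 1 kb from every gene end and at most 50 kb from the nearest one, and each counted for that nearest gene only. Such windows had been tested for the gene of 121 of the 239 lower near-gene windows. At 50 of these 121 (41.3%) at least 1 distal window was lower too, while at 14 (11.6%) a distal window was higher. Of 229 higher near-gene windows with a distal window, 40 (17.5%) had a higher and 20 (8.73%) a lower one. For the 2464 near-gene windows that were not called the shares were 14.1% higher and 17% lower. These shares are a description of the genes and were not tested.

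Several windows at M cell, antigen presentation and lipid genes had few or no counts in controls and were open with RANKL. H2-M2, Foxs1, Cd74, Guca2b and Apoa4 passed the filter on low counts only through their RANKL libraries. Their adjusted p values carry that selection. H2-M2 belongs to the non-classical class I genes of the MHC and had a window 117 bp outside its 5′ end (chr17:37483572-37483771) with 5.73, 2.63 and 0 CPM in controls 1 to 3 and 81.4, 69.3 and 72.1 CPM with RANKL. All 3 RANKL libraries were high and the groups were far apart (log2 fold change 4.38 ± 0.48 SE, edgeR adjusted p = 9.9e-17). It is the window whose promoter is printed above with 3 kB matches, 146, 165 and 179 bases before the start. Foxs1, which encodes a forkhead transcription factor, had no count in any control library and 32.5, 37.5 and 36 CPM with RANKL at a window 220 bp from its end (chr2:152931579-152931778). With the limit of 3 counts taken per library, its lowest RANKL library at 32.5 CPM lay above the highest control limit of 8.49 CPM (edgeR adjusted p = 5.6e-10).

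Cd74, the invariant chain that guides MHC class II molecules, had 2.86, 9.21 and 2.83 CPM in controls and 52.9, 46.2 and 42.6 CPM with RANKL 166 bp outside the gene on chromosome 18 (log2 fold change 3.03 ± 0.52, edgeR adjusted p = 2.8e-07). Guca2b, which encodes the gut peptide uroguanylin, had 8.59, 2.63 and 0 CPM in controls and 61.0, 54.8 and 41.0 CPM with RANKL, 830 bp beyond its 3′ end (chr4:119655672-119655871, 3.46 ± 0.53, adjusted p = 5.2e-09). Apoa4, an apolipoprotein of chylomicrons, had 2.86, 9.21 and 8.49 CPM in controls and 20.3, 60.6 and 47.5 CPM with RANKL, 59 bp inside its 5′ end (chr9:46240804-46241003, 2.71 ± 0.50, adjusted p = 2.2e-06). RANKL replicate 1 was the lowest of its group at Apoa4, and at each of these genes the groups did not overlap.

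Well-covered windows were defined as at or above the median CPM of tested near-gene windows, leaving out genes with predicted symbols (Gm, Rik and the like). Among them the 10 largest rises with groups apart lay at Zc3h18, Birc3, Snap23, Mab21l3, Katna1, Klhl5, Mybpc2, Pim1, H2-K1 and Pisd. Zc3h18, a zinc finger protein of nuclear RNA processing, had 21.5, 26.3 and 22.6 CPM in controls and 85.4, 101 and 75.4 CPM with RANKL (chr8:122376409-122376608, log2 fold change 1.84 ± 0.29, edgeR adjusted p = 2.6e-08). Snap23, a SNARE protein of membrane fusion, rose from 24.3, 35.5 and 34.0 to 106, 80.8 and 75.4 CPM (chr2:120567533-120567732, 1.44 ± 0.27, adjusted p = 5.8e-06). Katna1, the severing subunit of katanin, rose from 35.4 ± 5.88 to 90.2 ± 15.2 CPM and Pim1, a serine/threonine kinase, from 37.5 ± 5.08 to 94.2 ± 32.0 CPM, with adjusted p of 3.6e-05 and 5.8e-05. Mab21l3 rose from 33.3 ± 3.02 to 92.5 ± 23.1, Klhl5 from 37.2 ± 9.82 to 83.1 ± 22.9 and Pisd, which makes phosphatidylethanolamine, from 33.8 ± 3.49 to 78.7 ± 36.9 CPM. The Pisd call was lost in 2-kb counts with and without loess (adjusted p = 0.57 and 0.22).

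The 10 largest falls by the same rule lay at Acss1, Lor, Ccdc88a, Fzd1, Cited2, Ptger4, Cyp2j9, Defb37, Zfp972 and Ube2e2. Acss1, a mitochondrial acetyl-CoA synthetase, fell from 83.1, 67.1 and 105 CPM to 32.5, 20.2 and 24.6 CPM 876 bp inside its 5′ end (chr2:150667265-150667464, log2 fold change -1.70 ± 0.29, edgeR adjusted p = 3.8e-07). Ccdc88a, whose product girdin binds actin, fell from 84.5, 85.5 and 82.0 to 36.6, 20.2 and 36 CPM (chr11:29373502-29373701, -1.41 ± 0.27, adjusted p = 6.7e-06), against the trend of its chromosome given below. Cited2, a transcriptional coregulator, fell from 111 ± 10.7 to 50.4 ± 22.2 CPM, Ptger4, the EP4 receptor of prostaglandin E2, from 101 ± 6.07 to 45.3 ± 11.2, and Fzd1, a Wnt receptor, from 74.2 ± 4.42 to 32.0 ± 12.3 CPM. The window at Lor, the gene of the skin protein loricrin, fell from 83.0 ± 21.0 to 23.1 ± 8.62 CPM. The rule required RANKL libraries below every control. Of the 115 called windows named by rule, 14 of 78 rises and 13 of 37 falls held in every alternative fit that gave a value. Near-gene scaling ended 31 rises and 1 fall, 2-kb counts 49 and 3, and DESeq2 37 and 20.

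**Figure D3:**
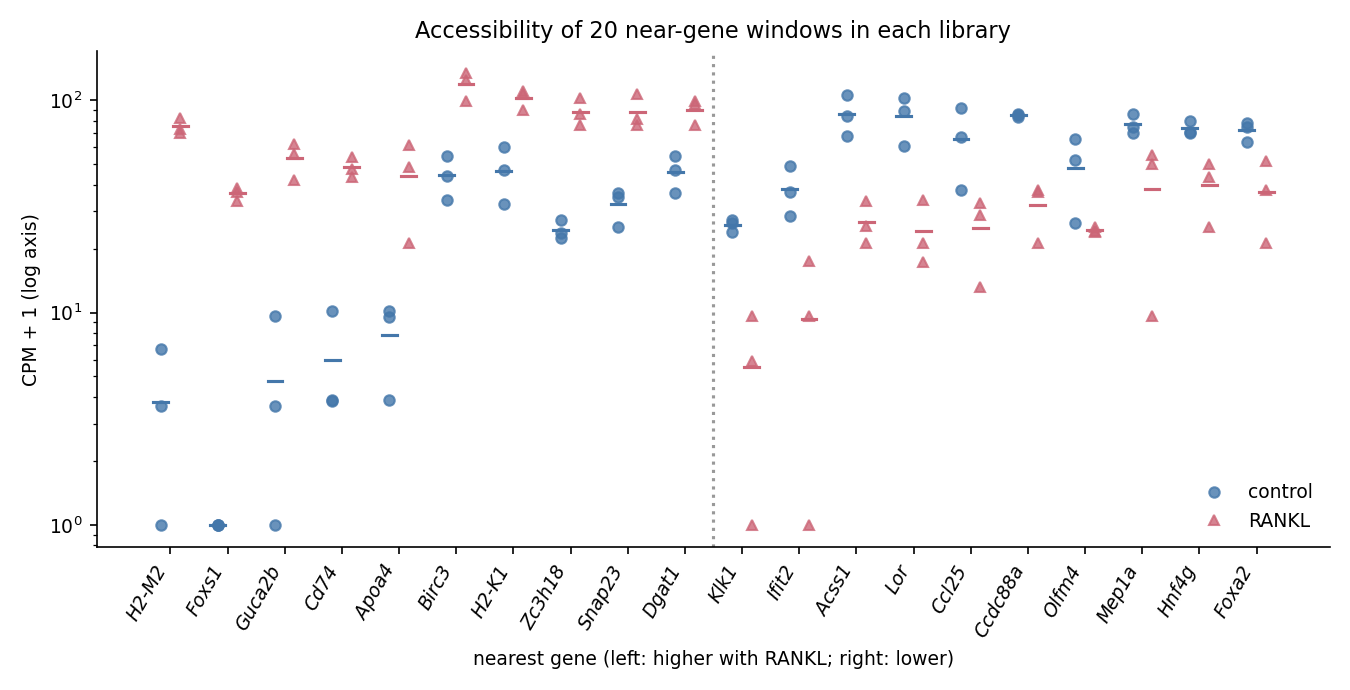
CPM plus 1 on a log axis in each of the 3 control and 3 RANKL libraries at 20 near-gene windows, with group means as short lines; windows to the left of the dotted line were higher with RANKL and those to the right lower. The windows were picked as examples and not by a rule, so the panel does not compare rises with falls in general. H2-M2, Foxs1, Guca2b, Cd74 and Apoa4 start near 0 in controls, and among the falls shown Klk1 and Ifit2 have a RANKL library at 0.

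M cells take up antigen above lymphoid follicles, and their gene program depends on the Ets factor Spi-B. Of 31 M cell genes, 17 had a member window and 16 windows were tested: 5 were higher and 1 lower, with a median log2 fold change of 0.30 against 0.15 for all tested near-gene windows. With near-gene scaling 3 were higher and 1 lower, and in 2-kb counts 5 were higher and 4 lower of 19, with a median of 0.10. For this and the later lists, the shares over all tested near-gene windows were 9.22% higher and 2.92% lower in 200-bp counts. In 2-kb counts these shares were 2.63% and 13.8%. The 5 windows higher in 200-bp counts were H2-M2, Marcksl1, Cyba, Cxcl16 and a window that has an end of both Mybpc2 and Spib within 1 kb. At that last window (chr7:44525246-44525445) controls had 32.9, 42.1 and 39.6 CPM and RANKL libraries 65.1, 124 and 77.0 CPM (1.21 ± 0.25, edgeR adjusted p = 4.2e-05), without overlap, although the call was lost in 2-kb counts (adjusted p = 0.086). The window at the Spib promoter itself, shared with Pold1, was too shallow for the test, with 1, 3 and 0 counts in controls and 6, 6 and 22 with RANKL, and was called in the fit without a filter (log2 fold change 3.51, adjusted p = 0.00028). Ccl9, an M cell chemokine, was likewise too shallow, with 0, 4 and 0 against 7, 9 and 7 counts, and was called without the filter (3.18, adjusted p = 0.012). Marcksl1, a regulator of actin, had 4.30, 10.5 and 31.1 CPM in controls and 28.5, 52.0 and 31.1 CPM with RANKL, so its groups overlapped, and its call was lost in 7 alternative fits (thinning gave no value), among them those without control replicate 1, control replicate 2 or RANKL replicate 2. The M cell gene that fell in 200-bp counts was Ccl20, a chemokine that attracts lymphocytes and dendritic cells, from 49.6 ± 10.4 to 23.3 ± 13.2 CPM (-0.94 ± 0.34, adjusted p = 0.032), and this call was lost in 6 of 15 alternative fits, among them those without control replicate 1, RANKL replicate 1 or RANKL replicate 2.

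NF-kB dimers are held in the cytoplasm by IkB proteins and released by kinases that adaptors recruit to receptors. Windows at these genes had medians above that of all tested near-gene windows with few calls. At 1 of 5 windows at subunit genes, 2 of 11 at inhibitors and feedback genes and 3 of 24 at kinases and adaptors accessibility was higher, and none was lower by edgeR, where 1, 0 and 2 were lower at an unadjusted p under 0.05 and none by DESeq2. Over all tested near-gene windows 9.22% were higher and 2.92% lower, so calls this few do not set these lists apart. The list medians were 0.33, 0.49 and 0.38, and that of a list of housekeeping genes was 0.36. With near-gene scaling 0, 0 and 2 windows of the 3 NF-kB lists were higher. In 2-kb counts kinases and adaptors turned to 0 higher and 5 lower of 26, with a median of -0.07, while subunits had 1 higher and 1 lower and inhibitors 3 higher and 0 lower. Birc3, an inhibitor of apoptosis and ubiquitin ligase of the pathway, had the firmest rise, from 43.0, 32.9 and 53.8 to 97.6, 133 and 123 CPM 182 bp inside its 5′ end (chr9:7872924-7873123, 1.54 ± 0.22, edgeR adjusted p = 5.3e-10). All RANKL libraries were high there, and the call was lost only in 2-kb counts (adjusted p = 0.13). Nfkbie, which encodes IkB epsilon, rose from 20.6 ± 6.12 to 48.7 ± 7.26 CPM and Nfkbid, which encodes the nuclear protein IkB-NS, from 30.9 ± 4.72 to 62.4 ± 6.10 CPM, both lost in 6 of 15 alternative fits, near-gene scaling included. A window beyond the 3′ end of Rela, the p65 subunit, rose from 31.6 ± 6.79 to 62.9 ± 9.40 CPM, lost in 5 alternative fits, and a window shared by Sharpin and Maf1 rose from 54.9 ± 19.6 to 95.6 ± 18 CPM. Bcl10, an adaptor, rose from 110 ± 22.4 to 146 ± 19.5 CPM with overlapping groups (edgeR adjusted p = 0.033), and its log2 fold change turned to -0.14 in 2-kb counts. Nfkbia had 52.8 ± 10.2 against 83.2 ± 16.7 CPM, Traf2 69.0 ± 10.3 against 101 ± 19.0 and Relb 114 ± 25.7 against 142 ± 14.9, and none of these 3 was called (edgeR adjusted p = 0.067, 0.079 and 0.18). Tnfrsf11a, which encodes the RANK receptor, and Nfkb2, Bcl3, Gp2, Tnfaip2 and Sox8 had no member window. Of 9 windows at TNF ligands and receptors none was called in either direction by edgeR or DESeq2 in 200-bp counts, with 1 lower at an unadjusted p under 0.05. In 2-kb counts 1 of 13 was lower and none higher.

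MHC class I molecules present peptides made by the proteasome. Of 20 tested windows at class I and peptide-loading genes 4 were higher in 200-bp counts, at H2-M2, H2-K1, H2-D1 and H2-Q2, and none was lower by edgeR, DESeq2 or at an unadjusted p under 0.05, with a list median of 0.47. With near-gene scaling 2 were higher, and in 2-kb counts 3 were higher and 2 lower of 25, with a median of 0.15. H2-K1, a classical class I gene, had 45.8, 31.6 and 59.4 CPM in controls and 106, 110 and 88.5 CPM with RANKL 238 bp inside the 5′ end of its annotated gene body (chr17:34000282-34000481, 1.20 ± 0.24, edgeR adjusted p = 1.1e-05). All RANKL libraries exceeded all controls, and H2-K1 was called in every alternative fit. H2-Q2 had 39.4 ± 11.6 against 78.1 ± 35.7 CPM with overlapping groups, and its call was lost in 7 of 15 alternative fits, near-gene scaling and the fits without control replicate 1 or RANKL replicate 1 among them. Near-identical class I genes can share reads, so the assignment of counts among them is uncertain. At proteasome genes 6 of 37 windows were higher and none lower by edgeR or DESeq2 (2 at an unadjusted p under 0.05), with a median of 0.32, but in 2-kb counts 1 of 40 was higher and 6 were lower. Over all near-gene windows 9.22% were higher in 200-bp counts, and 2.63% were higher and 13.8% lower in 2-kb counts. The Psmb7 window rose from 11.5 ± 2.79 to 35.8 ± 1.02 CPM, lost without control replicate 1 or RANKL replicate 3. The Psmd8 window, shared with Catsperg1, rose from 80.0 ± 4.15 to 135 ± 25.4 CPM, lost in 2-kb counts, after thinning and without RANKL replicate 2. Of 5 windows at MHC class II genes only that of Cd74 was called.

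Interferon-stimulated genes answer type I and II interferons and include antiviral sensors and effectors. Of 13 tested windows 3 were lower by edgeR, 1 by DESeq2 and 7 at an unadjusted p under 0.05. None was higher by any of these. The median was -0.51, and 4 windows were lower with near-gene scaling. Ifit2, an antiviral protein that binds RNA, had 35.8, 27.6 and 48.1 CPM in controls and 0, 8.66 and 16.4 CPM with RANKL 79 bp inside its 5′ end (chr19:34550530-34550729, -1.74 ± 0.48, edgeR adjusted p = 0.0034), and it was called in the alternative fits that gave a value, which leaves out thinning. Rsad2, which encodes viperin, had 76.5 ± 9.42 against 49.9 ± 9.77 CPM and Ifih1, the RNA sensor MDA5, 114 ± 26.7 against 72.0 ± 14.6 CPM, with adjusted p of 0.038 and 0.047, and these calls were lost in 9 and 7 of 15 alternative fits. The Trim and Rnf ubiquitin ligases were higher at 7 and lower at 2 of 78 windows, with a median of 0.17, and in 2-kb counts higher at 1 and lower at 18 of 92. The 2 falls were at Trim30a and Trim12c. Trim30a, whose promoter is printed above with an interferon-type match, fell from 32.7 ± 2.31 to 8.74 ± 6.67 CPM (-1.61 ± 0.50, adjusted p = 0.0097), a call lost with DESeq2 and without control replicate 2 or RANKL replicate 2. Trim12c, in the same Trim cluster of chromosome 7, had 107, 104 and 153 against 106, 54.8 and 67.2 CPM, with RANKL replicate 1 among the controls (adjusted p = 0.0053).

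Goblet cells make the mucus layer. Of 11 tested goblet cell windows 2 were lower and none higher by edgeR (4 lower and none higher at an unadjusted p under 0.05, none in either direction by DESeq2), with a median of -0.44. Klk1, a tissue kallikrein, had 22.9, 26.3 and 25.5 CPM in controls and 0, 8.66 and 4.92 CPM with RANKL 93 bp outside its 5′ end (chr7:44225168-44225367, -2.27 ± 0.66, edgeR adjusted p = 0.0057). Spink4, a protease inhibitor of goblet cells, had 36.9 ± 7.66 against 16.8 ± 6.03 CPM (adjusted p = 0.018), a call lost with DESeq2, with the replicate block (adjusted p = 0.071) and without control replicate 1, control replicate 2 or RANKL replicate 3. Genes of mucin-type glycosylation, which build the sugar chains of mucins, were higher at 1 and lower at 4 of 27 windows. Galnt7 had 44.4, 28.9 and 39.6 against 24.4, 0 and 11.5 CPM (-1.75 ± 0.47, adjusted p = 0.0026), lost without control replicate 1 or RANKL replicate 2. Chst8, a sulfotransferase, was the one that rose, from 48.8 ± 19.3 to 91.3 ± 21.8 CPM (adjusted p = 0.00029).

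Enterocytes digest and absorb nutrients. Of 8 tested windows at brush border enzymes 1 was lower, at Mep1a, the metalloprotease meprin A, with 68.7, 85.5 and 73.5 CPM in controls and 48.8, 8.66 and 54.1 CPM with RANKL (-0.95 ± 0.26, edgeR adjusted p = 0.0034). The Mep1a call was lost with DESeq2, in 2-kb counts with loess and without RANKL replicate 2, the lowest library. Sis, sucrase-isomaltase, had 57.3, 52.6 and 59.4 against 16.3, 54.8 and 31.1 CPM and was not called. The list median was -0.39. Windows at genes of fat absorption and fatty acid oxidation were higher at 7 and lower at 1 of 38, with a median of 0.24. With near-gene scaling 2 were higher and 1 lower, and in 2-kb counts 5 were higher and 5 lower of 44, with a median of -0.02. Besides Apoa4, Dgat1, which makes triglyceride, rose from 45.0 ± 9.14 to 89.2 ± 12.4 CPM (1.04 ± 0.24, adjusted p = 0.00031) and Cpt2, of mitochondrial fatty acid import, from 32.9 ± 8.11 to 71.1 ± 6.75 CPM. The Dgat1 and Cpt2 calls were lost after thinning, and that of Cpt2 also in 2-kb counts with and without loess. The one that fell in 200-bp counts was Ppargc1a, a coactivator of mitochondrial genes (log2 fold change -1.12, adjusted p = 0.011). Of 24 antimicrobial and Paneth cell genes 8 windows were tested, and the 2 that rose were Guca2b, which is not a Paneth cell gene, and Reg3g, an antibacterial lectin, from 22.2 ± 5.92 to 58.8 ± 7.31 CPM (1.31 ± 0.34, adjusted p = 0.0017).

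Crypt and Wnt genes were mixed, with 2 higher and 1 lower of 19 windows and a median of 0.19, and 2 higher and 4 lower of 23 in 2-kb counts. Olfm4, a marker of crypt stem cells, had 64.4, 51.3 and 25.5 CPM in controls and 24.4, 23.1 and 22.9 CPM with RANKL 53 bp outside its 5′ end (chr14:80000150-80000349, -1.10 ± 0.35, edgeR adjusted p = 0.014). Control replicate 3 lay close to the RANKL libraries there. The Olfm4 call was lost with DESeq2, with the replicate block (adjusted p = 0.076) and without RANKL replicate 3. Thinning and the fits without control replicate 1 or control replicate 2 gave no value for it. Ctnnb1, which encodes beta-catenin, rose from 24.3, 21.1 and 14.2 to 44.8, 80.8 and 37.7 CPM (adjusted p = 0.0026), a call lost without RANKL replicate 2. Tcf7l2, its DNA-binding partner, rose from 73.0 ± 3.33 to 116 ± 11.5 CPM, lost in 6 of 15 alternative fits, near-gene scaling included. Of 22 Notch pathway windows 1 was higher, at the protease gene Adam10, and 1 lower, at Dtx4, calls lost in 12 and 7 alternative fits, of which thinning and the fits without control replicate 1 or 2 gave no value for Dtx4. The fetal-like and YAP list had Sprr1a higher, from 8.59, 17.1 and 25.5 to 48.8, 57.7 and 42.6 CPM (1.62 ± 0.40, adjusted p = 0.00076), and Wwtr1, which encodes the coactivator TAZ, lower, from 77.6 ± 3.53 to 45.3 ± 6.66 CPM (adjusted p = 0.010). The Wwtr1 call was lost with DESeq2, after thinning and without RANKL replicate 3. Of 27 BMP and TGF-beta windows none was called by edgeR or DESeq2, with 3 higher and 2 lower at an unadjusted p under 0.05, and in 2-kb counts 1 of 32 was higher and 10 were lower.

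Intestinal identity is set by a small group of transcription factors. Of 12 windows at ONECUT, HNF4, HNF1, CDX and GATA factors and their like, 2 were lower and none higher by edgeR (3 lower and 1 higher at an unadjusted p under 0.05, none by DESeq2), with a median of -0.11. Hnf4g, a nuclear receptor of enterocytes, had 68.7, 69.7 and 79.2 CPM in controls and 24.4, 49.1 and 42.6 CPM with RANKL (chr3:3507896-3508095, -0.81 ± 0.27, edgeR adjusted p = 0.017), and Foxa2, a forkhead factor, 77.3, 73.7 and 62.2 against 36.6, 20.2 and 50.8 CPM (chr2:148046309-148046508, -0.90 ± 0.27, adjusted p = 0.0073). Both calls were lost with DESeq2 and after thinning. The Foxa2 call was also lost without RANKL replicate 2 and the Hnf4g call without RANKL replicate 1 or 3. Hnf4a had 39.0 ± 10.5 and 44.4 ± 17.4 CPM, Onecut1 32.1 ± 14.0 and 21.6 ± 6.51, and Onecut2 63.7 ± 19.0 and 66.4 ± 4.64, and none of the 3 was called. Stat3 rose from 58.7, 57.9 and 67.9 to 171, 86.6 and 83.6 CPM (0.78 ± 0.21, adjusted p = 0.0026), a call lost without RANKL replicate 1 (adjusted p = 0.16) and in 2-kb counts. Of 10 AP-1 windows 3 were higher, at Junb, Mafk and Atf3, and none lower by edgeR, DESeq2 or at an unadjusted p under 0.05. Junb rose from 33.8 ± 7.54 to 63.9 ± 17.1 CPM. The Junb, Mafk and Atf3 calls were lost in 5, 8 and 11 of 15 alternative fits, and with near-gene scaling 1 AP-1 window was higher. In 2-kb counts 2 AP-1 windows were higher and 1 lower of 12. Over all tested near-gene windows 9.22% were higher in 200-bp counts.

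Krüppel-type zinc finger genes, many of which encode repressors, had the most tested windows of any list. Of 270 tested windows at Zfp and related genes 10 were higher (3.70%) and 14 lower (5.19%), with a median of -0.05 against 0.15 for all tested near-gene windows. With near-gene scaling 1 was higher and 19 lower, and in 2-kb counts 7 and 91 of 324. Zfp972 had 81.6, 75 and 76.4 CPM in controls and 61.0, 14.4 and 37.7 CPM with RANKL (chr2:177925781-177925980, -1.11 ± 0.27, edgeR adjusted p = 0.00061). Zfp706 rose from 48.6 ± 10.3 to 87.5 ± 23 CPM (0.91 ± 0.23, adjusted p = 0.0013), a call lost in 2-kb counts with and without loess, after thinning and without RANKL replicate 3. Many of these genes are recent copies of each other, and reads shared between copies make the assignment uncertain.

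Solute carriers, which move nutrients and ions across membranes, were higher at 26 of 151 windows (17.2%) and lower at 2 (1.32%), with a median of 0.21. Over all tested near-gene windows 9.22% were higher and 2.92% lower, and in 2-kb counts 2.63% and 13.8%. With near-gene scaling 7 solute carrier windows were higher and 2 lower, and in 2-kb counts 8 higher and 15 lower of 199. Slc6a20a, an amino acid transporter, rose from 35.8, 38.1 and 31.1 to 97.6, 52.0 and 75.4 CPM (1.03 ± 0.28, edgeR adjusted p = 0.0023) and was called in every alternative fit. Slc25a48, a mitochondrial carrier, rose from 17.6 ± 5.85 to 49.4 ± 9.30 CPM, lost without RANKL replicate 3, and Slc16a7, a monocarboxylate transporter, fell from 73.0 ± 13.5 to 36.1 ± 9.48 CPM (-1.06 ± 0.27, adjusted p = 0.0014). Rab, Snx, Vps and related genes of vesicle traffic were higher at 15 of 119 windows (12.6%) and lower at none (1 at an unadjusted p under 0.05, none by DESeq2), but 1 was higher with near-gene scaling, and 3 higher and 23 lower in 2-kb counts. Arl2 rose from 33.8 ± 4.23 to 71.5 ± 7.16 CPM and Arf2 from 70.2 ± 12.2 to 117 ± 11.9 CPM. Among cathepsins and lysosomal membrane genes 4 of 34 windows were higher and 1 lower, and in 2-kb counts 0 and 5 of 41: Ctsd rose from 36.1 ± 5.50 to 65.0 ± 11.2 CPM, a call lost in 9 of 15 alternative fits, whereas Ctsc, a cathepsin that activates serine proteases, fell from 145 ± 5.24 to 92.4 ± 4.54 CPM (-0.67 ± 0.18, adjusted p = 0.0025).

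Detoxification genes were divided, with 4 higher and 5 lower of 43 windows at cytochrome P450, UGT, GST and SULT genes. Gstp3, a glutathione S-transferase, rose from 25.8, 26.3 and 31.1 to 81.4, 66.4 and 55.7 CPM (1.25 ± 0.31, edgeR adjusted p = 0.00092), and Cyp2j9 fell from 75.9, 85.5 and 82.0 to 16.3, 57.7 and 31.1 CPM (-1.17 ± 0.27, adjusted p = 0.0002). Chemokine genes had 2 higher and 2 lower of 9 windows. Besides Ccl20, the fall was at Ccl25, which draws lymphocytes to the small intestine, from 65.9, 90.8 and 36.8 to 12.2, 31.8 and 27.9 CPM 984 bp beyond its 3′ end (chr8:4360905-4361104, -1.42 ± 0.31, adjusted p = 9.7e-05). Cx3cl1, or fractalkine, rose from 33.8 ± 15.9 to 66.2 ± 9.91 CPM, a call lost in 7 of 15 alternative fits, near-gene scaling included. Keratin-associated genes of hair also held calls in both directions: Krtap2-4 rose from 9.69 ± 4.23 to 41.1 ± 6.90 CPM while Krtap24-1 and Krtap26-1 fell from 35.0 ± 8.27 to 10.2 ± 1.81 and from 65.0 ± 7.39 to 25 ± 4.28 CPM.

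Families that every cell uses were tested in the same way. The counts of higher and lower windows were 6 and 0 of 89 at respiratory chain genes, 4 and 2 of 73 at cytosolic ribosomal proteins, 6 and 0 of 65 at mitochondrial ribosomal proteins, 9 and 1 of 62 at translation factors, and 7 and 0 of 57 at cell cycle genes. Where the edgeR count is 0, windows lower at an unadjusted p under 0.05 numbered 4, 1 and 0 for the respiratory chain, mitochondrial ribosome and cell cycle, and DESeq2 called none. Their medians of 0.12, 0.25, 0.16, 0.15 and 0.00 lay around the 0.15 of all tested near-gene windows. In 2-kb counts the direction turned in all 5 families, to 1 higher and 10 lower of 94, 1 and 8 of 79, 0 and 5 of 77, 1 and 7 of 66, and 0 and 11 of 58 in the same order. This turn was shared by near-gene windows as a whole, of which 2.63% were higher and 13.8% lower in 2-kb counts. Atp5g2, a subunit of ATP synthase, rose from 52.1 ± 11.3 to 109 ± 25.3 CPM (0.92 ± 0.22, edgeR adjusted p = 0.00045) and Rps16 from 27.3 ± 8.95 to 63.9 ± 11.2 CPM, both lost in 2-kb counts and the latter without RANKL replicate 3. Birc5, the mitotic protein survivin, rose from 17.2, 18.4 and 11.3 to 52.9, 40.4 and 45.9 CPM (1.47 ± 0.40, adjusted p = 0.0027). A list of housekeeping genes had 2 higher and 0 lower of 22 windows, and DESeq2 called none. At an unadjusted p under 0.05, 8 of its windows were higher and 1 lower. Its median of 0.36 lay above the 0.15 of all tested near-gene windows. In 2-kb counts 0 were higher and 1 lower of 23, with a median of 0.07. Gapdh, a member of that list often used as a stable reference, rose from 47.7 ± 7.17 to 85.2 ± 4.34 CPM (0.80 ± 0.24, adjusted p = 0.0071), a call lost in 5 of 15 alternative fits, near-gene scaling included. The 5 strongest near-gene windows, at Lars2, Hjurp, Osbp, Zfp960 and Mtrf1l, had mean control levels of 203 to 308 CPM and none was called.

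**Figure D4:**
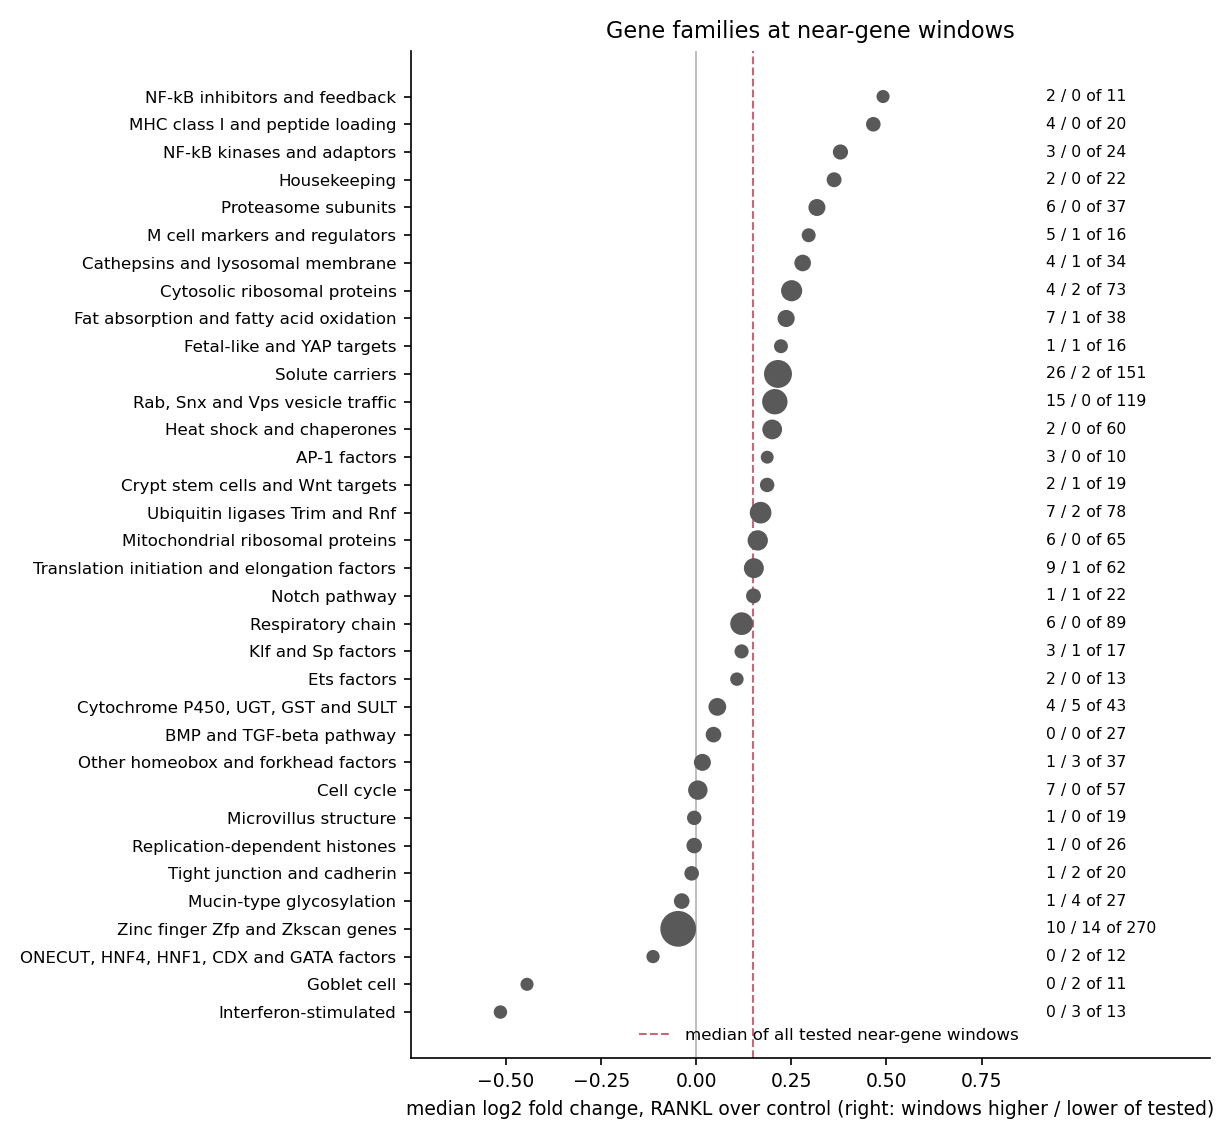
Median log2 fold change of the tested near-gene windows of each gene list with at least 10 tested windows; the size of a point grows with the number of windows, the numbers at the right are windows higher and lower of those tested, and the dashed line is the median of all tested near-gene windows, 0.15. NF-kB inhibitors (0.49) and MHC class I genes (0.47) stand at the top and goblet cell (-0.44) and interferon-stimulated genes (-0.51) at the bottom.

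A RefSeq promoter of 300 bases, from 250 before to 50 after the start, could be placed at 6313 member windows, of which 5529 were tested, 552 higher and 121 lower. The CpG ratio, observed CG dinucleotides over those expected from base content, exceeded 0.6 at 81.8% of tested promoters, against 47.6% of all 21263 promoters in the table. It did so at 85.5% of the higher and 52.9% of the lower ones. Of 215 promoters with a ratio of 0.3 or less, 17 were higher (7.91%) and 23 lower (10.7%), and their median log2 fold change was -0.14. Of 1715 with a ratio over 0.9, 196 were higher (11.4%) and 21 lower (1.22%), with a median of 0.22. Some members break this order: Apoa4 and H2-M2, with ratios of 0.04 and 0.13, were higher.

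Motif letters were counted on both strands of the same 300 bases for 18 motifs. The kB letters GGANTTNCC stood in 5.43% of higher, 4.13% of lower and 4.00% of uncalled promoters, and in 4.03% of all promoters of that length. The 229 tested promoters that hold them had a median log2 fold change of 0.18, as had those without. The GC box GGGCGG stood in 80.6% of higher, 56.2% of lower and 71.3% of uncalled promoters (46.2% of all), and CCAAT in 50.4%, 36.4% and 43.6% (38.2% of all). The TATAAA box was in 4.35% of higher, 10.7% of lower and 6.63% of uncalled promoters (12.6% of all). GAAANNGAA was in 4.17%, 9.92% and 6.32% (8.15% of all) and the AP-1 letters TGANTCA in 5.62%, 7.44% and 4.35% (6.99% of all). The GC box overlaps with CpG content, and the matches are a description of letters and not of bound sites. Variants of a motif that depart from its letters, kB sites included, were not counted.

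The chromosomes differed. On chromosome 11, 109 of 616 tested near-gene windows were higher (17.7%) and 7 lower, with a median log2 fold change of 0.40, and these made up 14.5% of all near-gene rises. Its share of near-gene counts was 6.14%, 6.16% and 5.92% in controls and 6.89%, 7.12% and 7.03% with RANKL, without overlap (p = 0.1, exact permutation test, the smallest possible). Such shares lay apart between the groups on every chromosome except 2, 7 and 17. The RANKL mean over the control mean was 1.15 on chromosome 11, against 0.908 to 1.06 on the other autosomes. The other windows of chromosome 11 had a median of 0.11, against -0.14 over all chromosomes, so both kinds of window were shifted there. Within chromosome 11 the first 154 near-gene windows by position had a median of 0.09 and the next 3 groups of 154 had 0.48, 0.51 and 0.44. The shift was present at each level of GC: with promoters in 4 groups by GC, in the lowest group 12.8% of chromosome 11 promoters and 5.21% of the others were higher, and in the highest group 22.3% and 11.8%. Birc5, Stat3, Atp5g1, Eif5a, Cdc6, Etv4, Arf2, Mrpl45, Rnf167, Hoxb9 and Krtap2-4 lie on chromosome 11, and the part of this shift in their rises was not tested. Without chromosome 11, 645 of 7562 near-gene windows were higher and 232 lower.

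Chromosome X showed the reverse, with none of 221 windows higher and 14 lower by edgeR (7 higher and 33 lower at an unadjusted p under 0.05, 0 and 3 by DESeq2) and a median of -0.16. Its share of near-gene counts was 2.59%, 2.49% and 2.36% in controls and 1.99%, 2.01% and 2.13% with RANKL, again without overlap (p = 0.1, exact permutation test), as on most chromosomes. The RANKL mean over the control mean was 0.825, the lowest of any chromosome. On all 20 chromosomes the near-gene median lay above the median of the other windows. Across 166 bins of 10 Mb with at least 20 tested windows of each kind, the medians of near-gene and other windows had a Pearson correlation of 0.70 and a Spearman correlation of 0.71, a description of bins that share the same 6 libraries, with near-gene medians from -0.33 to 0.62.

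**Figure D5:**
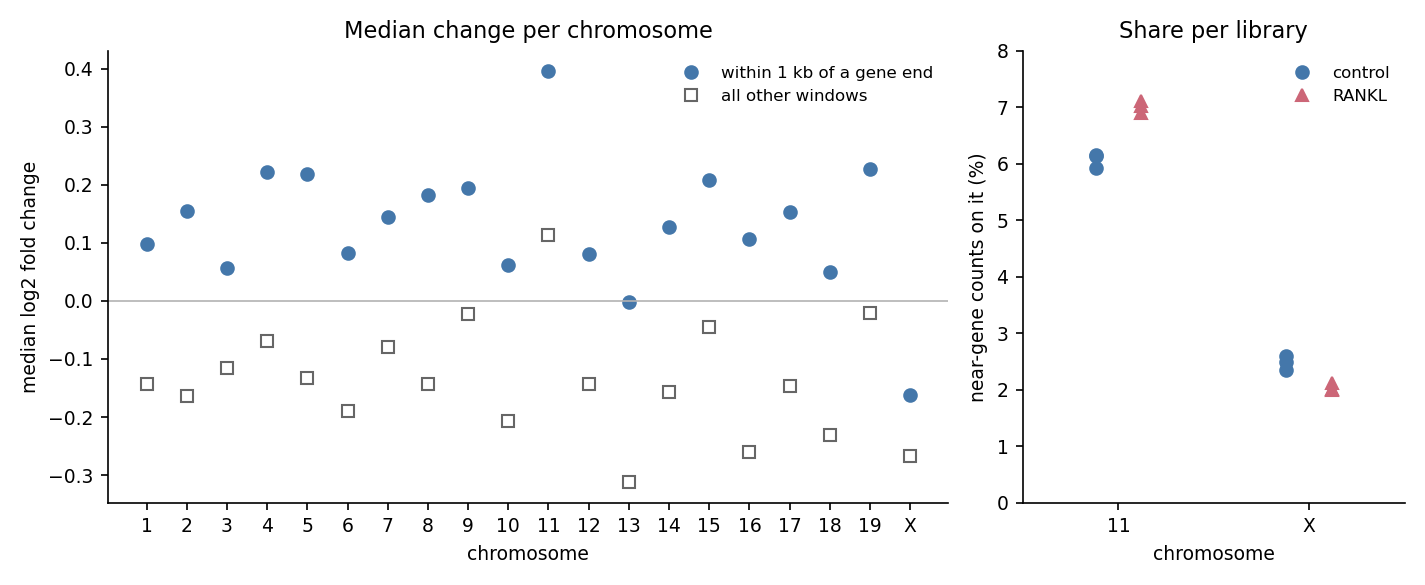
Left, median log2 fold change of tested windows per chromosome for windows within 1 kb of a gene end (filled) and all others (open); right, percentage of near-gene counts that fell on chromosomes 11 and X in each control and RANKL library. Chromosome 11 has the highest near-gene median, 0.40, and X the lowest, -0.16, and in both the 3 libraries of a group lie apart from the other group. The groups also lie apart on every other chromosome except 2, 7 and 17, which the right panel does not show.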

How the data were processed

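ATAC-seq (Tn5 accessibility) was measured in 3 control and 3 RANKL libraries of 1 organoid line. The authors deposited raw counts of reads per 200-bp window (mm10) and a score per 2-kb window, which the values show to be the natural log of the count plus 1, centred and scaled within each library. The 2-kb counts were recovered from these scores to within 0.00744 of a whole number. Per the submitters' processing notes, the tools included MACS2 2.2.7, BWA 0.7.17, fastp 0.20.1, DESeq2 1.34.0 and Picard. How the windows were chosen is not given in the sources used here.

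Window centres were set against the ends of 21887 protein-coding genes (GRCm38). Strand came from RefSeq promoters (GRCm38.p6), which cover 17492 of them. Annotation gave gene bodies only, without exons, introns or UTRs. All 55056 windows entered edgeR 4.0.16 (R 4.3.3; TMM, filterByExpr, robust quasi-likelihood test, Benjamini-Hochberg over all tested windows, threshold 0.05). CPM values use effective library sizes of the tested windows. Alternatives were DESeq2 1.42.0, its size factors, loess offsets (limma 3.58.1), near-gene scaling, 2-kb counts, no filter, thinning to the lowest total, other distances, a replicate block and each library left out. The code was tested on simulated data. The labels number experiments 1 to 3 in both groups, but deviations of same-numbered libraries correlated at -0.03, 0.02 and -0.01, so the fit has no block.

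Named windows were the genes of interest, the 10 rises and 10 falls of greatest size at or above the median level with groups apart, up to 3 called windows with the smallest adjusted p in each of 51 lists, and the 5 strongest. The rises and falls of greatest size leave out genes with predicted symbols. The members and lists were chosen with earlier results of these data known.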

Additional observations from a re-analysis of the deposited data

How the results depend on the processing

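The number of higher near-gene windows (754) fell to 220 with near-gene scaling, 233 with DESeq2, 267 in 2-kb counts and 198 after thinning, and ranged from 410 to 627 when 1 library was left out. The number of lower windows (239) became 61 with DESeq2, 1402 in 2-kb counts, 491 in 2-kb counts with loess and 71 after thinning, and ranged from 158 to 233 with 1 library left out. The cause was not tested, except that thinning left 5669 windows to test. With the replicate block 559 windows were higher and 196 lower. The difference in the share of counts near genes (2.03 percentage points) turned to -2.25 in 2-kb counts and ranged from 1.21 to 2.71 with 1 library left out. Among called named windows, the log2 fold change turned to -0.14 at Bcl10 (adjusted p = 0.571) and -0.12 at Cd24a (adjusted p = 0.687) in 2-kb counts, by edgeR's quasi-likelihood test, and the uncalled windows at the 5′ end of Anxa5 and at Lars2, Mtrf1l, Onecut2, Osbp and Zfp960 also changed sign there. Leaving out chromosome 11, or chromosomes 11 and X, was chosen after seeing the data and gave 645 higher windows in both, and 232 and 218 lower. Depth limits the weaker windows: 3 counts equal 12.2 CPM in the shallowest library, and 2095 windows were too shallow to test.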
